A study of Mus musculus with 6 samples.

Results

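The genes described here are 8 members of the endocytic machinery for lipoproteins and carrier proteins: the receptors Vldlr, Lrp8, Lrp1, Lrp2 and Cubn, the Cubn partner Amn, the adaptor Dab2 and the sorting receptor Sort1. They were taken by symbol from 19938 genes measured by an array feature that names that gene and no other, and all 8 were found. For a gene with several features, the feature with the highest mean signal was kept. The set was put together with the contrast between the cavities already known, Vldlr being among the genes with the lowest difference, narrow minus wide. The differences between cavities below are therefore a description of the members, and no test is drawn from them.

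Whole CD1 mouse embryos of embryonic day 5.0 were placed for 8 hours in cavities either 90 µm (narrow) or 180 µm (wide) across, and 30 embryos made up each RNA sample. CD1 is an outbred stock, and all samples share the stage, the culture time and the absence of any genetic change. There were 3 pools per cavity, called narrow 1 to 3 and wide 1 to 3 after the numbers in their titles, and the study asked how outside mechanical cues alter such embryos. The pools are stated to be biological replicates, but each averages over many embryos, so spread between single embryos was not measured. Each pool holds epiblast, extraembryonic ectoderm and visceral endoderm together, so fewer cells of a type and less RNA per cell cannot be told apart.

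Receptors of the low density lipoprotein receptor family bind lipoprotein particles, proteases bound to their inhibitors and carrier proteins at the cell surface, and carry them into clathrin-coated pits through short signals in their cytoplasmic tails. In the early mouse embryo the visceral endoderm is the absorptive layer that takes up maternal nutrients. It does so largely through the giant receptor megalin (Lrp2), which works with cubilin (Cubn), a receptor without a membrane anchor of its own that is held in place by amnionless (Amn). Dab2 links these receptors to clathrin, and mouse embryos lacking Dab2 or Amn fail around gastrulation.

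Vldlr, the receptor for very low density lipoprotein and also one of the receptors for reelin, had a lower signal in narrow cavities. The values are log2 signals, on which a step of 1 is a doubling. Its signal was 8.62, 8.70 and 8.76 in narrow 1, 2 and 3, and 8.94, 8.96 and 8.92 in wide 1, 2 and 3. The highest narrow pool thus lay below the lowest wide pool, and the groups did not overlap. The group means were 8.69 ± 0.07 in narrow and 8.94 ± 0.02 in wide pools (SD, n = 3 each). The difference, narrow minus wide, was -0.25 ± 0.05 (SE of the limma fit), a ratio of 0.840 on the linear scale. The same-numbered pairs differed by -0.32, -0.27 and -0.17, so narrow was lower in 3 of 3 pairs and pair 1 differed most. The narrow pools were spread over a wider range than the wide ones.

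**Figure D1:**
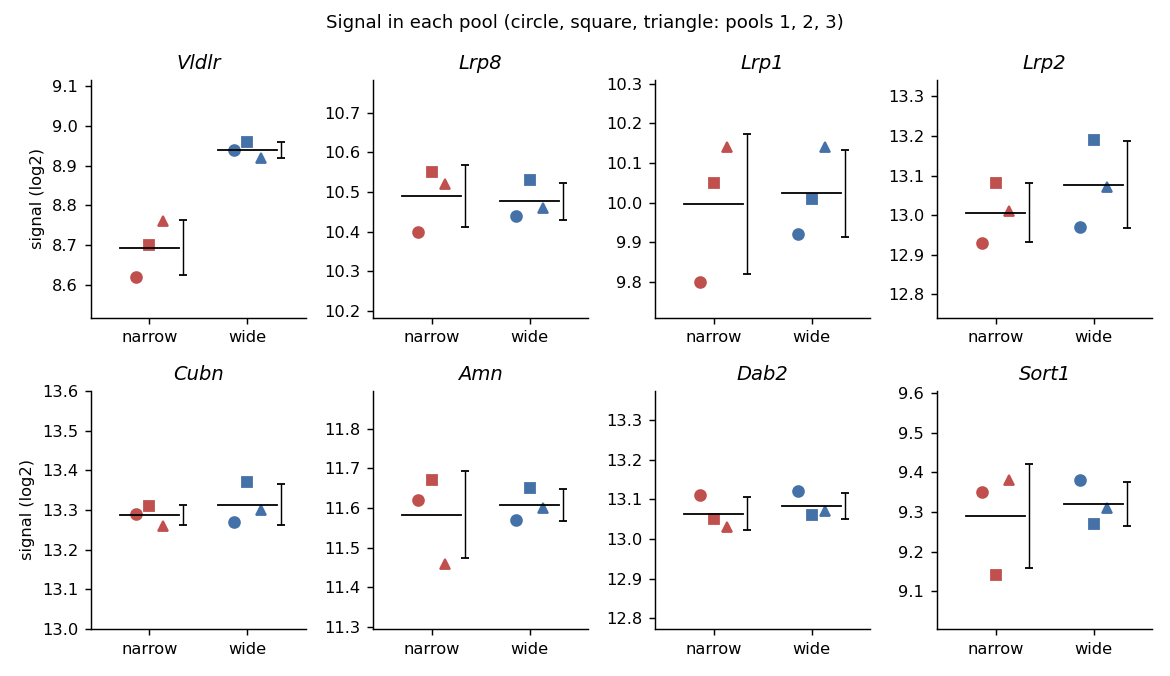
Log2 signal of the 8 genes in each pool of the narrow (red) and wide (blue) cavity, where circle, square and triangle are pools 1, 2 and 3, the line is the group mean and the bar beside it the SD (n = 3); every panel spans the same height on the log2 scale. The 3 narrow pools of Vldlr lie below its 3 wide pools, and the groups of the other 7 genes overlap.

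Against all genes, the place of Vldlr was near the low end. Of 19938 genes, 25 had a difference as low as that of Vldlr or lower, itself included, and 47 had one as large in either direction. In the limma fit over all genes with Benjamini-Hochberg adjustment, 0 genes (0%) passed an adjusted p of 0.05, Vldlr among those that did not, with 1.00 as the lowest adjusted p of any gene. Without adjustment, 678 genes (3.40%) had a p under 0.05, of which 343 (1.72% of all genes) were lower and 335 (1.68%) higher in narrow. With the replicate number as a block, 0 genes passed again, the lowest adjusted p was 0.0838 (limma) and 1446 genes had an unadjusted p under 0.05. All narrow pools lay below all wide pools in 705 genes (3.54%) and above them in 831 (4.17%). Among the 8 members 1, Vldlr, lay below and 0 above. As Vldlr was chosen for this contrast, nothing is read from that count.

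**Figure D2:**
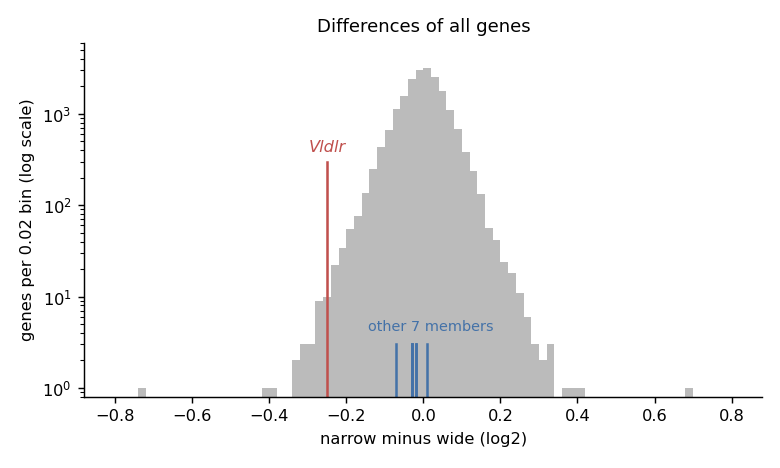
Number of genes (log axis) by their difference, narrow minus wide, on the log2 scale, for all 19938 genes in bins of 0.02, with Vldlr (red line) and the other 7 members (blue lines) marked. Vldlr, at -0.25, lies in the lower tail, while the other members lie between -0.07 and 0.01, close to the centre of the distribution.

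The Vldlr feature was of middling brightness, at the 59.3th percentile of mean signal over all genes, and it was the 1 feature that names this gene alone. Narrow 1 and wide 1 deviated from their group means together over all genes (correlation 0.516). With both left out, the Vldlr difference was -0.22 ± 0.05. Leaving out each array in turn gave -0.28 to -0.22. With the replicate number as a block it was -0.25 ± 0.04.

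The sequence before the transcription start of Vldlr is shown because this is the member whose pools separated, and that of Lrp2 because it had the next largest difference. Both come from RefSeq for GRCm38.p6, at chr19:27216234-27216479 on the plus strand for Vldlr and chr2:69586034-69586279 on the minus strand for Lrp2, each 246 bases ending just before the annotated start of the gene (within 4 bases for Lrp2). They are written 5′ to 3′, with matches to 6 short motifs in capitals.
Vldlr: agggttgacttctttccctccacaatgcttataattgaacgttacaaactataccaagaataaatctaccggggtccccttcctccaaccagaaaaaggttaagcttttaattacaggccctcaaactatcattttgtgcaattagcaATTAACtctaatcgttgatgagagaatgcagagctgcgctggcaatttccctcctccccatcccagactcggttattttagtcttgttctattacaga
Lrp2: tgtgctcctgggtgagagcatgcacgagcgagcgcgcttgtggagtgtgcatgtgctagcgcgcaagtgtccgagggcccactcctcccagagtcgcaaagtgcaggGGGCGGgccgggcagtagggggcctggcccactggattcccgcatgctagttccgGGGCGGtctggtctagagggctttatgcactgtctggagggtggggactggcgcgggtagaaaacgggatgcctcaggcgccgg

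The motifs were searched on both strands. The Vldlr window held 1 match to GTTAAT, a core of the binding motif of the hepatocyte factor HNF1, on the strand opposite to the printed one, and 6.37% of the 32851 RefSeq windows of this length have such a match. The Lrp2 window held 2 matches to the GC box GGGCGG, which 32.2% of windows have, and Vldlr held 0. Neither window matched GATAA (GATA factors, in 22.4% of windows), the nuclear receptor core AGGTCA (13.8%), the sterol response element TCACNCCAC (1.02%) or the ATF4 element TGATGNAAT (0.801%). The windows also differed in base composition, with 41.1% G and C before Vldlr and 66.3% before Lrp2. A match is a stretch of letters and not a site shown to be bound, and the array did not measure where transcripts start.

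Lrp8, also named ApoER2, is the closest relative of Vldlr and the other receptor for reelin. It showed no such separation. Its signal was 10.40, 10.55 and 10.52 in narrow 1 to 3, and 10.44, 10.53 and 10.46 in wide 1 to 3. The groups overlapped, and the lowest pool was number 1 in both cavities. The difference was 0.01 ± 0.05 (SE), with a 95% interval of -0.11 to 0.13.

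Lrp1, a broad scavenger receptor for protease complexes and lipoprotein remnants, differed more between pool numbers than between cavities. Its values were 9.80, 10.05 and 10.14 in narrow 1 to 3 and 9.92, 10.01 and 10.14 in wide 1 to 3. The arrays numbered 1 were the lowest in each cavity, with a mean of 9.86 against 10.08 for those numbered 2 and 3. The difference between cavities was -0.03 ± 0.09 (95% interval -0.24 to 0.19), the least precise of the 8. With the replicate number as a block its standard error was 0.04. Its sign turned without the arrays numbered 1, where it was 0.02 ± 0.07.

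Lrp2, or megalin, had a signal of 12.93, 13.08 and 13.01 in narrow 1 to 3 and of 12.97, 13.19 and 13.07 in wide 1 to 3. Narrow was lower in each same-numbered pair, by 0.04, 0.11 and 0.06, yet the groups overlapped because the pools numbered 1 were low and those numbered 2 high in both cavities. The difference was -0.07 ± 0.07 (95% interval -0.22 to 0.09), or -0.07 ± 0.04 with the replicate block. Without wide 2 it was -0.01. The Lrp2 feature lay at the 99.5th percentile of signal, where the limit given below for Cubn applies too.

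Cubn, the cubilin receptor for intrinsic factor with vitamin B12 and for several plasma proteins, was among the brightest features of the array. It gave 13.29, 13.31 and 13.26 in narrow and 13.27, 13.37 and 13.30 in wide pools 1 to 3. All pools lay within 0.11 of each other and the groups overlapped. The difference was -0.03 ± 0.04 (95% interval -0.13 to 0.08). Its feature lay at the 99.8th percentile of signal, where an array can respond less than in proportion to RNA, and saturation was not measured.

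Amn, which anchors Cubn in the membrane, gave 11.62, 11.67 and 11.46 in narrow and 11.57, 11.65 and 11.60 in wide pools 1 to 3. Narrow 3 was the lowest pool, and the others lay between 11.57 and 11.67. The difference was -0.02 ± 0.06 (95% interval -0.16 to 0.12), and it turned to 0.05 without narrow 3.

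Dab2, the clathrin adaptor that binds the tails of Lrp2 and its relatives, had the smallest range of the 8, from a feature at the 99.6th percentile of signal, where the limit given for Cubn applies too. It gave 13.11, 13.05 and 13.03 in narrow and 13.12, 13.06 and 13.07 in wide pools 1 to 3, with the pools numbered 1 highest in both cavities. The difference was -0.02 ± 0.04 (95% interval -0.12 to 0.08). A second feature naming Dab2 had a mean signal of 4.96, at the 3.2th percentile of all genes, and a difference of -0.01. It lay so near the dim end of the array that it carries little information.

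Sort1, sortilin, which moves cargo such as apolipoprotein B between the Golgi, endosomes and lysosomes, gave 9.35, 9.14 and 9.38 in narrow and 9.38, 9.27 and 9.31 in wide pools 1 to 3. The pools numbered 2 were the lowest in each cavity. The difference was -0.03 ± 0.07 (95% interval -0.19 to 0.13), and it turned to 0.05 without narrow 2.

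**Figure D3:**
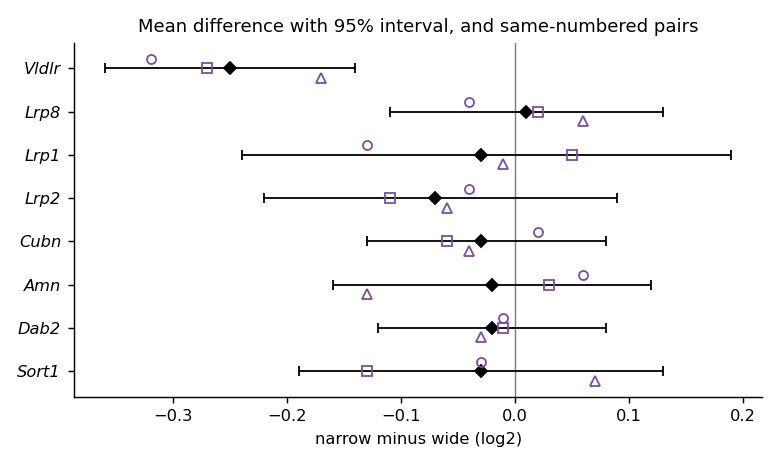
Difference in signal, narrow minus wide, on the log2 scale for each of the 8 genes: diamond and bar are the mean with the 95% interval of the limma fit (n = 3 per cavity), and open circle, square and triangle are the same-numbered pairs 1, 2 and 3. Vldlr lies at -0.25 with all pairs below 0, and the intervals of the other 7 genes include 0.

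As a set, the 8 members had a median difference of -0.027, against 0.001 over all genes. Of the 7 members other than Vldlr, 6 had a negative and 1 a positive difference, between -0.07 and 0.01. Over all genes, 9781 had a negative and 10157 a positive difference. The 95% intervals of the 7, from the fit without pairing, all included 0. The lower ends of these intervals lay between -0.24 (Lrp1) and -0.11 (Lrp8), all above the -0.25 measured for Vldlr, which has an interval of its own from -0.36 to -0.14. Whether Vldlr differed from the others in its response was not tested, as it was picked for that response. Over the 6 arrays, Pearson's r of the other members with Vldlr ran from -0.05 for Amn to 0.50 for Lrp2. Most of the spread of Vldlr over the arrays is the difference between cavities for which it was picked. Its coefficients therefore largely restate that difference, and do not show whether members vary together within a cavity. Among the other members, Lrp2 and Cubn, which work as a receptor complex, had an r of 0.82, and Lrp8 and Dab2 one of -0.87. These coefficients rest on 6 arrays that share their normalization and the offset of the pools numbered 1, and they are given as a description.

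The further genes of the pathway were grouped by role in 7 lists with 84 symbols, a few of them older names of another entry. Of these, 73 were measured apart from the members. In the limma fit with Benjamini-Hochberg adjustment over all genes 0 of the 73 passed in either direction. At an unadjusted p under 0.05 there was 1 of 73 (1.37%), against 3.40% of all genes. With the replicate block it was 2 of 73, against 1446 of 19938 genes. All narrow pools lay below all wide pools for 3 of the 73, against 3.54% of all genes, and above them for 0, against 4.17%. The median difference was -0.003, with 35 positive and 38 negative. The count at an unadjusted p under 0.05 rested on single arrays. It was 3 without narrow 1, 2 without narrow 2, and 0 without narrow 3 or without wide 3.

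Of 10 further relatives in the receptor family, 5 had a positive and 5 a negative difference, from -0.07 to 0.08, and the groups overlapped in all 10. Lrp3 had the smallest p of those higher in narrow, at 0.08 ± 0.06 (SE). Ldlrad3 had the smallest p of those lower in narrow, at -0.07 ± 0.04. The Wnt co-receptor Lrp6 differed by 0.03 ± 0.04, its relative Lrp5 by -0.01 ± 0.06 and Lrp12 by -0.03 ± 0.05. The 4 other genes of the sortilin family all had small positive differences, from 0.02 to 0.05, such as Sorcs2 at 0.05 ± 0.05. Sorcs1, at 0.05 ± 0.04, was dim, at the 13.1th percentile of signal.

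Among 4 genes that fold or degrade these receptors, all differences were negative and between -0.05 and -0.03. Mylip, also called Idol, is a ubiquitin ligase that marks receptors of this family, Vldlr among them, for destruction. Its signal was 9.52, 9.39 and 9.42 in narrow and 9.59, 9.44 and 9.45 in wide pools 1 to 3, a difference of -0.05 ± 0.06. Lrpap1, the chaperone that keeps the receptors free of ligand on their way to the surface, differed by -0.03 ± 0.04. The chaperone Creld2 differed by -0.05 ± 0.04.

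Of 13 endocytic adaptors, Snx17 was the gene with an unadjusted p under 0.05. Snx17 is a sorting nexin that binds the tails of this receptor family in early endosomes and returns them to the surface. Its signal was 11.20, 11.20 and 11.15 in narrow and 11.32, 11.26 and 11.28 in wide pools 1 to 3. The groups did not overlap, and the difference was -0.11 ± 0.04 (limma, unadjusted p = 0.0334, adjusted p = 1.00 over all genes). It therefore did not pass. Dab1, the adaptor that relays the reelin signal from Vldlr and Lrp8, differed by -0.01 ± 0.05. Numb, at -0.05 ± 0.04, Gulp1, at 0.09 ± 0.10, and the clathrin adaptor subunit Ap2b1, at 0.04 ± 0.04, overlapped between the cavities.

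Of 16 genes of clathrin coats and early endosomes, 8 had positive and 8 negative differences, all between -0.05 and 0.05. Eea1, a tether of early endosomes, gave 9.94, 9.93 and 9.94 in narrow and 10.05, 9.97 and 9.95 in wide pools 1 to 3, a difference of -0.05 ± 0.04. Dnm2, the dynamin that pinches off vesicles, differed by -0.04 ± 0.04. Both lay lower in all narrow than in all wide pools, though the nearest pools almost touched. The recycling GTPase Rab4a differed by 0.04 ± 0.04 and the lipid phosphatase Ocrl by 0.03 ± 0.04.

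**Figure D4:**
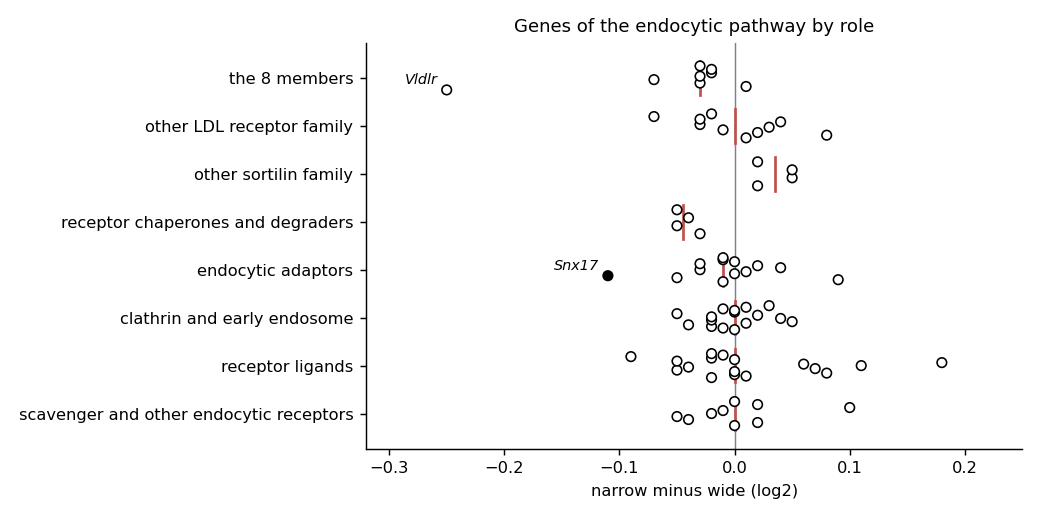
Difference, narrow minus wide, on the log2 scale for each measured gene of the pathway by role, with the 8 members in the top row; red lines are medians, and filled points mark an unadjusted p under 0.05 among genes other than the members. Vldlr, at -0.25, lies outside the range of the 73 other genes, which runs from -0.11 (Snx17) to 0.18 (Rbp4). As Vldlr was chosen for this difference, nothing is read from its place.

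Of 17 measured ligands, 8 had positive and 9 negative differences, with a median of -0.002. Reln, which codes for the signalling ligand reelin, had a signal between 7.14 and 7.19 in all 6 pools, at the 36.8th percentile, and differed by -0.02 ± 0.04. Apoe, the apolipoprotein by which Vldlr and Lrp8 bind particles, differed by 0.01 ± 0.04. Lpl, the lipase that releases fatty acids from particles and also binds Vldlr, differed by 0.08 ± 0.05. Rbp4, the retinol carrier taken up through Lrp2, had the largest difference of the list, at 0.18 ± 0.09, with overlapping pools. A2m differed by 0.11 ± 0.06, Ttr by -0.05 ± 0.04 and Cblif, the intrinsic factor, by -0.09 ± 0.08. Among 9 other endocytic receptors the transferrin receptor Tfrc had the smallest p, at 0.10 ± 0.06, followed among the positive ones by Scarb2 at 0.02 ± 0.04. Stab1 differed by -0.05 ± 0.05 and the dim Cd36 by -0.04 ± 0.12.

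Genes whose pattern was most like that of Vldlr were ranked by Pearson's r over the 6 arrays. The highest were the snoRNA host gene Snhg17 (r = 0.996), Acap1 (0.985), Fam187b (0.984), Ildr1 (0.984) and the interferon-induced Oasl2 (0.977). Their differences were -0.10, -0.04, -0.08, -0.11 and -0.24 in that order, so Oasl2 alone of these 5 came near the size of Vldlr. The most opposite were Nudt2 (r = -0.992), the autophagy gene Gabarapl2 (-0.985), the phosphodiesterase Pde3a (-0.983), the endosomal sodium and proton exchanger Slc9a9 (-0.982) and Pag1 (-0.982). Slc9a9 differed by 0.17 ± 0.05, from a dim feature at the 17.9th percentile. With so few arrays, 112 genes reached an r above 0.9 and 102 one below -0.9. The pools of every gene named here separated by cavity, as those of Vldlr did. Vldlr was chosen for that separation, so the ranking largely picks genes by the same contrast. Shared regulation with Vldlr was not tested.

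The labelled tissue, whole embryo, was checked with marker lists of the 3 tissues. All 19 measured visceral endoderm markers, all 12 epiblast and all 11 extraembryonic ectoderm markers lay above the median signal of all genes. So did all 12 parietal endoderm markers and 6 of 8 markers of trophoblast giant cells and ectoplacental cone. The check therefore does not single out the 3 tissues. The visceral endoderm list had a mean log2 signal of 11.15 to 11.18 in narrow and 11.08 to 11.15 in wide pools, with 12 of 19 differences positive. Its markers Foxa1 (0.16 ± 0.04) and Trf (0.18 ± 0.05) lay higher in all narrow pools, and Hnf4a (-0.06 ± 0.04) lay lower. Apob, Apoe, Rbp4 and Ttr are in this list and also among the ligands. The extraembryonic ectoderm list ran from 11.23 to 11.31 in narrow and 11.28 to 11.32 in wide pools, with 7 of 11 differences negative. Of its members Esrrb (-0.22 ± 0.04), Bmp4 (-0.21 ± 0.08) and Bmp8b (-0.09 ± 0.05) lay lower in all narrow pools, and Tfap2c (0.09 ± 0.05) lay higher. The epiblast list ran from 11.01 to 11.11 in narrow and 11.03 to 11.12 in wide pools, with 7 of 12 differences negative. Sox2 (-0.09 ± 0.05) lay lower and Foxd3 (0.12 ± 0.06) higher in all narrow pools, and Nanog (-0.16 ± 0.09) lay lower in 3 of 3 same-numbered pairs with overlapping groups. Over all genes, 10157 differences were positive and 9781 negative. All narrow pools lay below all wide pools in 3.54% of genes and above them in 4.17%. The single markers were named after their values were seen, and a link to Vldlr was not tested.

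Lists of markers of other cells overlapped between the cavities. Parietal endoderm markers, 12 measured, had means of 11.00 to 11.04 in narrow and 10.97 to 11.02 in wide pools. Trophoblast giant cell and ectoplacental cone markers ran from 8.34 to 8.45 against 8.31 to 8.36, with 8 of 8 differences positive. Over all genes, 10157 of 19938 were positive. Decidua markers ran from 7.56 to 7.58 against 7.57 to 7.59, and blood cell markers from 7.13 to 7.19 against 7.10 to 7.35. The macrophage gene Lyz2 of the blood list ran from 6.05 in narrow 3 to 7.50 in wide 3. In the last 2 lists 3 of 11 and 2 of 7 markers lay above the median signal. Array signals have no true zero here, so no marker could be called absent. The part of tissue proportions in the Vldlr difference was not tested.

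**Figure D5:**
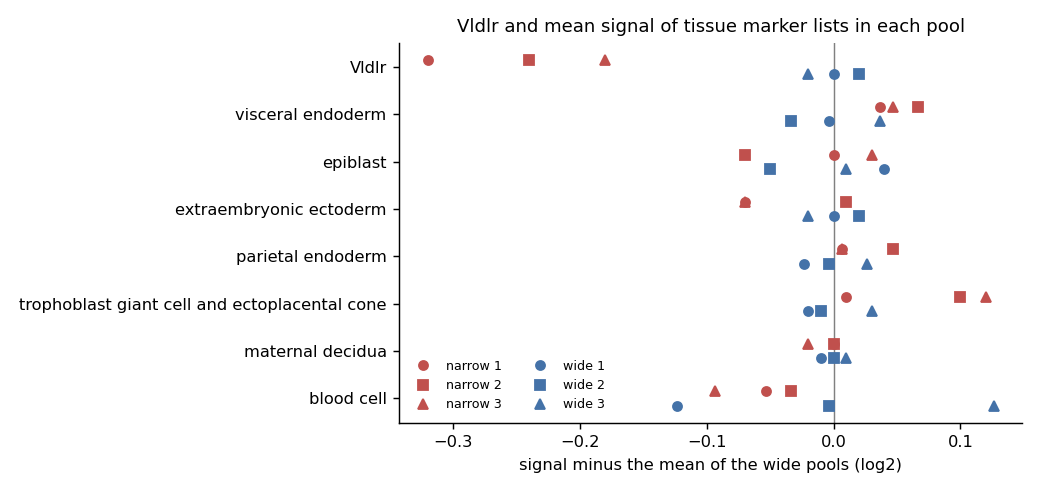
Signal of Vldlr and mean signal of each marker list in every pool, less the mean of the wide pools, on the log2 scale; red is narrow, blue is wide, and circle, square and triangle are pools 1, 2 and 3. The narrow pools of Vldlr lie well to the left of its wide pools, while the groups of each list overlap or nearly touch, and the blood cell list spreads widest, from 7.10 in wide 1 to 7.35 in wide 3.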

How the data were processed

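RNA of 6 pools was measured on Affymetrix Mouse Gene arrays, per the labels. The authors deposited log2 signals, 1 per feature and array, between 4.33 and 14.31; the scale was read from this range. Array medians of 7.62 to 7.67 show prior scaling between arrays, its method not given in the sources used here. Changes in total RNA are thus not seen. Arrays have no read depth, and precision is limited by their number.

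Of 28853 features, 21789 named 1 gene in the platform annotation (dated, symbols matched to RefSeq for 21698, with 0 changed), 1621 several and 5443 none. No dim genes were left out. limma 3.58.1 in R 4.3.3 (lmFit, eBayes, two-sided, no covariate) was fitted to all 19938 genes, with Benjamini-Hochberg adjustment over all of them and a threshold of 0.05. On simulated data with no offset shared by same-numbered arrays, it returned the mean size of known differences. That check does not show how often such differences would be called.

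The members and lists were chosen with earlier results of these data known. Named were all members, up to 2 genes higher and 2 lower with the smallest p in each pathway list, and the 5 most and least like Vldlr, leaving out predicted, olfactory and small RNA genes; other genes were named after their values were seen. Deviations from the group means correlated at 0.516, 0.176 and 0.272 in same-numbered pairs 1, 2 and 3, all over 0.1, which was taken as pairing, although narrow 2 and wide 3 reached 0.178 and no label explains the numbers. Values are from the fit without pairing unless the replicate block is named. Their standard errors and intervals can be wider than with the block, as for Lrp1, with a standard error of 0.09 against 0.04.

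RefSeq promoter windows were matched for 7 of 8 members.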

Additional observations from a re-analysis of the deposited data

How the results depend on the processing

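The Vldlr difference kept its sign and stayed within 1 SD of the replicates under every alternative run, from -0.28 to -0.22. Of 84 values of the other 7 members, 84 stayed within 1 SD, and 13 of them had another sign or were 0. Staying within 1 SD says little here, for Vldlr or the others. Leaving out 1 array of 3 cannot move a difference that far. Nor can leaving out arrays turn the sign for Vldlr, as all its narrow pools lay below all its wide pools. The replicate block, the trend and robust settings and the restriction to brighter genes leave the difference itself unchanged by construction. By limma 0 genes passed the adjusted threshold under each alternative: the replicate block, leaving out each array, genes above the median signal, the mean of all features of a gene, quantile normalization, eBayes with trend and robust settings, and the arrays numbered 2 and 3 only. At an unadjusted p under 0.05, the 678 genes became 1446 with the replicate block, 384 among genes above the median signal, where fewer were tested, and between 497 and 990 with 1 array left out. The 1 of 73 pathway genes at that threshold became 2 with the replicate block, 2 with trend and robust settings, 0 with the arrays numbered 2 and 3 only, and between 0 and 3 with 1 array left out. The causes were not tested. The block changed no other call. The array background was not measured, so how far it limits dim features is unknown, and the median standard error over genes was 0.053.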
